A study of Mus musculus with 9 samples.

Results

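The genes described here are the nuclear genes for the mitochondrial respiratory chain and the ATP synthase. They were chosen by symbol, as protein-coding genes whose mouse symbol starts with Ndufa, Ndufb, Ndufc, Ndufs, Ndufv, Sdh, Uqcr or Atp5, or with Cox followed by a digit from 4 to 8, and no measured value entered the choice. The rule gave 98 gene IDs of the 55401 in the count table. They carry 97 symbols, since Atp5o is listed under 2 IDs whose exons overlap, and 12 processed pseudogenes and 1 non-coding gene with such symbols were left out. By the complex their products belong to, 36 were assigned to complex I, 4 to complex II, 8 to complex III, 19 to complex IV (with Ndufa4 and its relative Ndufa4l2) and 17 to complex V. The other 14 are assembly factors and related genes that share the symbols (Ndufaf and Sdhaf genes, Cox7a2l and Atp5s). After the filter on low counts 91 of the 98 were tested, among 15331 genes in all.

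Complex I (NADH dehydrogenase) and complex II (succinate dehydrogenase) pass electrons to ubiquinone, complex III (the cytochrome bc1 complex) hands them to cytochrome c, and complex IV (cytochrome c oxidase) to oxygen. Complexes I, III and IV pump protons across the inner mitochondrial membrane, and the gradient drives complex V, the ATP synthase. Complex II is made from nuclear genes alone, while the others combine nuclear-encoded subunits with a few encoded in mitochondrial DNA.

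The cells were XEN cells, stem cell lines of the extra-embryonic endoderm, from a hybrid of M. m. molossinus and M. musculus, labelled female for all but the wild-type clones. Xist is the RNA that coats and silences an X chromosome, and the study deleted a segment upstream of it, asking how this affects gene expression. Wild-type cells were sequenced as WT_EV (n = 3) and as clones, here WT_clone (n = 2). DXp (n = 2) carries the deletion on the paternal X chromosome, called a paternal Xist deletion in the labels, and DXp_DXm (n = 2) is homozygous for it. All were grown in DMEM with serum, and no other allele or agent is named. The titles call both DXp libraries D1 and both DXp_DXm libraries D3. Should each name stand for 1 line, an effect of the line and one of the genotype cannot be told apart. Neither the ends of the deletion nor the meaning of EV is given in the sources used here. Each deletion had 2 biological replicates per the labels, but the labels do not say so of WT_EV. The spread behind each p-value is therefore that of these samples only, and may be technical.

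The 7 libraries of the WT_EV and deletion table held 14352719 to 29335803 counts. The biological coefficient of variation within groups was 33.7%, and the median log2 change of all tested genes was -0.35 in DXp and -0.15 in DXp_DXm against WT_EV. RNAs without a poly(A) tail moved with the same groups, with Rn7sk at 157188 to 255029 counts in the WT_EV libraries and at 2 to 7 in those of the deletion lines, and histone genes at 0.977 to 2.45% of counts against 0.00129 to 0.00686%. The part of this difference between libraries in the results was not tested. Markers of XEN cells were present (14 of 14 tested, summed level 29457 to 40479.8 CPM in WT_EV, 11788 to 24488 in DXp and 16731 to 19143 in DXp_DXm). In DXp replicate 1 the basement membrane genes Col4a1 and Col4a2 stood at 0 and 0.205 CPM, against 1983 and 318 in DXp replicate 2. Of 7 pluripotency markers Klf4 alone was well expressed (83.7 to 375 CPM), and 7 trophoblast and 7 fibroblast markers summed to at most 1.85 and 1.64 CPM in any library, with Tfap2c, Prl3d1, Col1a2, Col3a1, Thy1 and Lum at 0 in all. The 6 heart and muscle markers summed to at most 50.3 CPM.

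Most nuclear respiratory chain genes were lower in both deletion lines, and a minority was higher. In DXp 59 of the 91 tested members fell and 14 rose, with a median log2 change of -2.23. Over all 15331 genes tested 40.1% were called lower and 32.2% higher in that comparison. In DXp_DXm 50 members fell and 18 rose, with a median of -1.27, where 36.0% of all genes were called lower and 30.9% higher. Where a pair of changes is given for a gene, DXp comes first and DXp_DXm second. A gene was called at an adjusted p under 0.05 by the edgeR quasi-likelihood test, adjusted over all genes tested. Both comparisons use the same 3 WT_EV libraries. Side by side, 50 members were lower and 12 higher in both, 0 were called in opposite directions, and 12 were called in neither. Without DXp replicate 1 there were 55 lower and 14 higher members in DXp.

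Summed over the 98 genes, the share of a library's counts was 1.16, 1.03 and 0.781% in WT_EV, 0.344 and 0.348% in DXp and 0.466 and 0.482% in DXp_DXm. The groups did not overlap, and DXp lay lowest. Complex V genes made up the largest part of the sum in every library, 0.301 to 0.440% of counts in WT_EV against 0.129 to 0.203% with a deletion. The 13 subunits encoded in mitochondrial DNA went the other way: they made up 0.787, 0.591 and 0.779% of counts in WT_EV, 3.45 and 1.30% in DXp and 3.57 and 2.46% in DXp_DXm. In DXp 9 of these 13 rose and 0 fell (median log2 change 1.96), and in DXp_DXm 10 rose and 0 fell (median 2.09), among them mt-Nd2, mt-Nd5 and mt-Atp6 in both. The DXp libraries differed from each other more here than in the nuclear share. With the offsets for GC content and length described further on, 6 of the 13 were higher in DXp and 8 in DXp_DXm, and 0 lower.

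**Figure D1:**
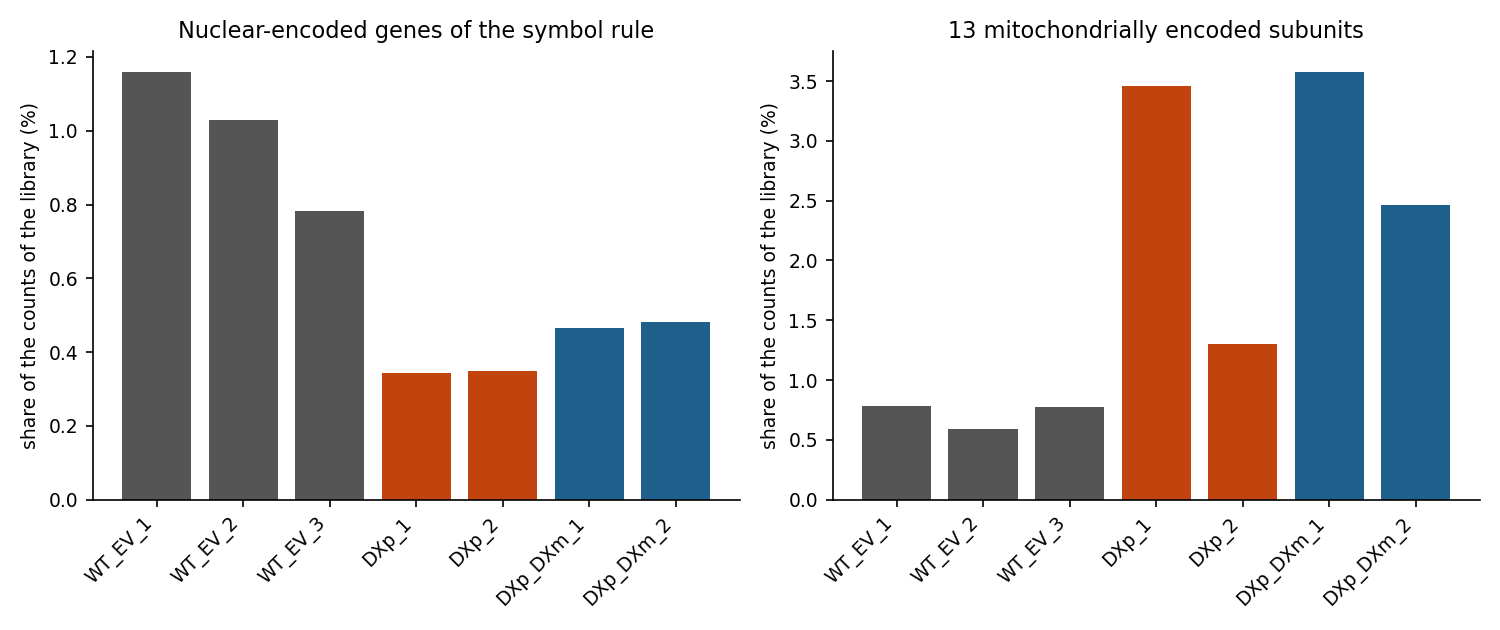
Share of all counts of a library (%, linear axis from 0) taken by the 98 nuclear-encoded genes (left) and by the 13 mitochondrially encoded subunits (right), 1 bar per library, grey for WT_EV, orange for DXp and blue for DXp_DXm. The nuclear share is lower in every deletion library than in every WT_EV library, and the mitochondrial share is higher.

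**Figure D2:**
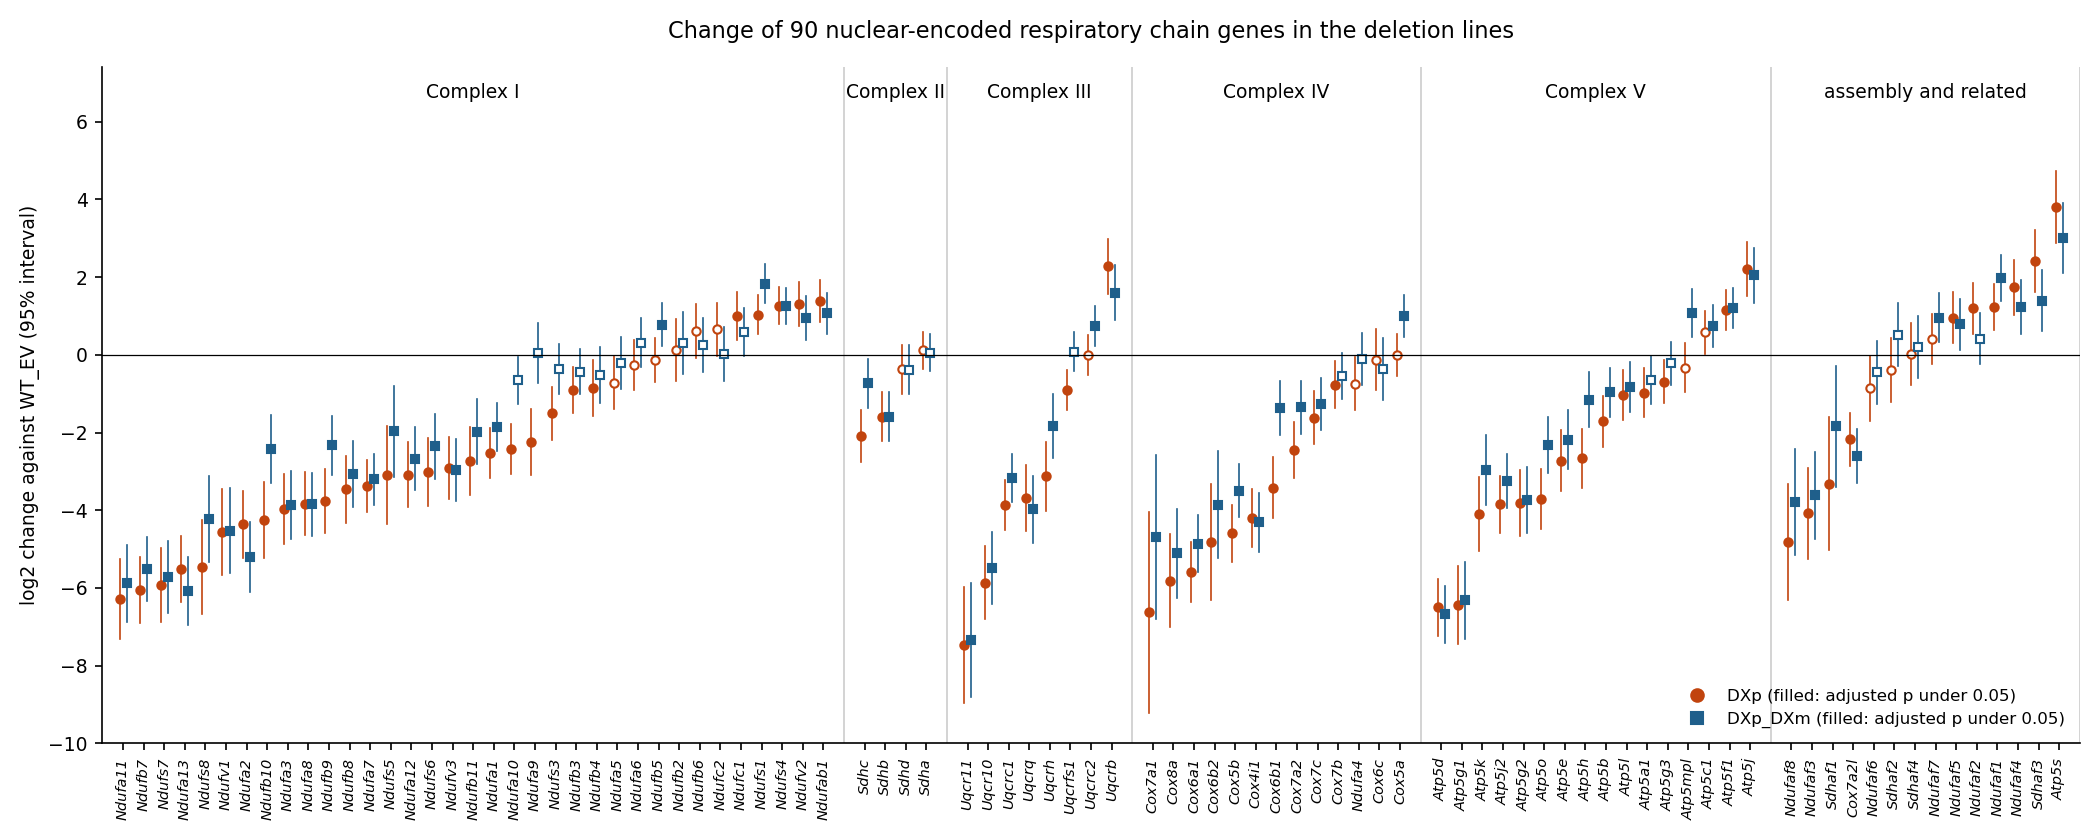
log2 change against WT_EV (vertical axis, with 95% interval) of 90 of the 91 tested members, grouped by complex and sorted within it by the change in DXp. Orange circles are DXp and blue squares DXp_DXm, filled where the adjusted p is under 0.05; most filled points lie below 0, and in the assembly group 6 points of each colour are filled above 0 and 4 below. The point of Cox7a1 rests on 6 counts in the deletion libraries.

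Of the 36 complex I genes, 25 fell and 5 rose in DXp (median log2 change -2.83), and 20 fell and 5 rose in DXp_DXm (median -1.91). The 7 nuclear subunits of the catalytic core, which take electrons from NADH to ubiquinone, moved in both directions. Ndufs7, which holds the last iron-sulfur cluster before ubiquinone, was at 57.7, 43.5 and 33.8 CPM in WT_EV, 0.869 and 0.618 in DXp and 0.912 and 0.786 in DXp_DXm. It fell with log2 changes of -5.92 (adjusted p = 4.6e-06, SE 0.43) in DXp and -5.72 (adjusted p = 8.0e-06, SE 0.42) in DXp_DXm, and every deletion library lay below every WT_EV library. Ndufs8, another iron-sulfur subunit, had log2 changes of -5.47 and -4.22, and Ndufv1, the NADH-binding flavoprotein, of -4.56 and -4.52, all past the threshold. Ndufs3 fell in DXp (-1.50, adjusted p = 0.0013) and not past the threshold in DXp_DXm (-0.36, adjusted p = 0.29).

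The core subunit with the longest coding sequence and the small partner of the flavoprotein rose. Ndufs1, the iron-sulfur subunit that receives electrons from the flavoprotein arm, was at 95.1, 99.4 and 72.2 CPM in WT_EV, 181 and 184 in DXp and 339 and 294 in DXp_DXm, so that all deletion libraries lay above WT_EV. It rose by log2 1.04 (adjusted p = 0.0021, SE 0.23) in DXp and 1.83 (adjusted p = 7.8e-05, SE 0.23) in DXp_DXm, the largest called rise of complex I there. Ndufv2, the partner of Ndufv1 in the flavoprotein arm, rose by log2 1.31 and 0.95 (adjusted p = 0.0011 and 0.0077). Ndufab1, the mitochondrial acyl carrier protein, had the largest called rise in DXp, 1.38 (adjusted p = 5.1e-04, SE 0.24), from 50.1 ± 3.92 CPM (SD, n = 3) to 131 ± 36.4 (SD, n = 2). Its change in DXp_DXm was 1.07 (adjusted p = 0.0029). Without DXp_DXm replicate 2 the rise of Ndufv2 in DXp_DXm no longer passed (0.76, adjusted p = 0.066).

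Among the accessory subunits Ndufa11, a membrane subunit, fell furthest of complex I in DXp: its levels were 43.3, 29.5 and 28.3 CPM in WT_EV, 0.562 and 0.309 in DXp and 0.539 and 0.589 in DXp_DXm, a log2 change of -6.28 (adjusted p = 4.6e-06, SE 0.47). Ndufa13 fell furthest in DXp_DXm (-5.51 in DXp and -6.08 in DXp_DXm), and Ndufb7 had log2 changes of -6.05 and -5.52. Ndufa1, the complex I member with the highest CPM per kilobase of exon in WT_EV (131), lies on chromosome X at chrX:37187588-37191163 (GRCm38). It was at 56.5, 58.3 and 49.5 CPM in WT_EV, 11.2 and 7.80 in DXp and 15.1 and 15.2 in DXp_DXm and fell with log2 changes of -2.53 and -1.85. Ndufb11, the other X-linked gene of complex I, fell with log2 changes of -2.74 and -1.97. The complex IV subunit Cox7b, the last X-linked member, fell with a log2 change of -0.77 in DXp (adjusted p = 0.026) and had a log2 change of -0.55 in DXp_DXm (adjusted p = 0.095). The call of Cox7b in DXp was lost without WT_EV replicate 1 (-0.61), DXp replicate 2 (-0.52) or DXp_DXm replicate 1 (-0.69). DESeq2 did not call it either (-0.63, adjusted p = 0.11). With the offsets for GC content and length, described further on, Cox7b was called lower in DXp_DXm too (-1.34, adjusted p = 0.0051), as it was with offsets from coding sequence (-0.81) and with a block by the other number in the titles (-0.67, adjusted p = 0.045). Ndufa5, Ndufa6, Ndufb2, Ndufb6 and Ndufc2 of complex I were called in neither comparison.

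Complex II had the smallest falls among the 5 complexes by median, -0.98 in DXp and -0.56 in DXp_DXm, over 4 genes. Sdha, the flavoprotein that oxidises succinate, was at 128, 132 and 129 CPM in WT_EV, 137 and 145 in DXp and 118 and 152 in DXp_DXm. Its log2 changes were 0.12 (95% interval -0.36 to 0.60, adjusted p = 0.64) and 0.05 (-0.43 to 0.54, adjusted p = 0.84). Sdhb, its iron-sulfur partner, was at 49.1, 43.9 and 41.7 CPM in WT_EV, 12.1 and 17.6 in DXp and 14.3 and 15.5 in DXp_DXm, with no overlap between WT_EV and the deletion lines. It fell with log2 changes of -1.60 (adjusted p = 5.9e-04, SE 0.28) and -1.59 (adjusted p = 7.4e-04, SE 0.28). Of the membrane anchors Sdhc fell with a log2 change of -2.09 in DXp and of -0.73 in DXp_DXm (adjusted p = 0.04), and Sdhd had log2 changes of -0.37 and -0.38, short of the threshold. Sdhd had the highest CPM per kilobase of this complex in WT_EV, 99.2. The call of Sdhc in DXp_DXm was lost without WT_EV replicate 1 or 2, DXp replicate 1, or DXp_DXm replicate 1 or 2 (log2 changes -0.92 to -0.47). It was also lost with DESeq2 (-0.69, adjusted p = 0.064) and with edgeR without the filter on low counts (-0.72, adjusted p = 0.081).

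**Figure D3:**
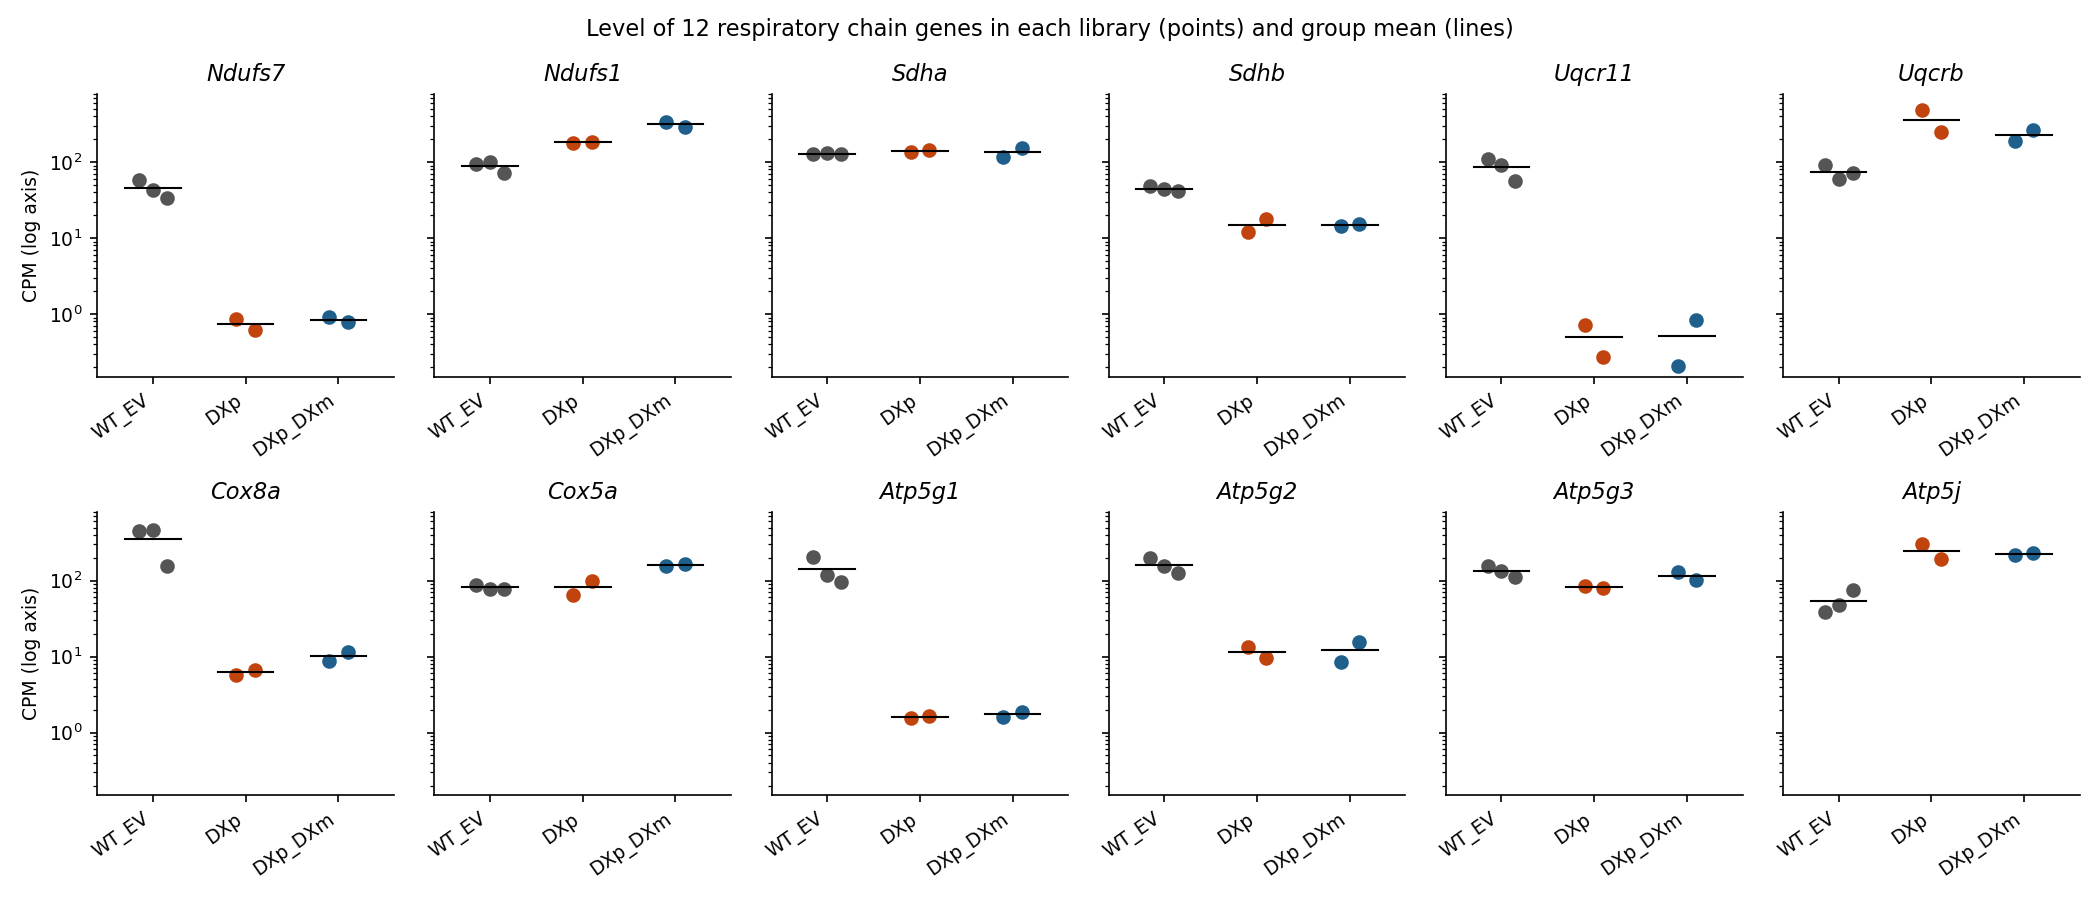
CPM on a log axis of 12 members in each of the 7 libraries (points; grey WT_EV, orange DXp, blue DXp_DXm) with the mean of each group as a line. Ndufs7, Uqcr11, Cox8a and Atp5g1 lie far lower in all 4 deletion libraries, Uqcrb, Ndufs1 and Atp5j lie higher, and Sdha overlaps between the groups.

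Complex III held both the deepest fall and one of the largest rises. Uqcr11, a small subunit of the complex, was at 108, 91.1 and 57.2 CPM in WT_EV, 0.716 and 0.270 in DXp and 0.207 and 0.825 in DXp_DXm. It fell with log2 changes of -7.47 (adjusted p = 9.3e-06, SE 0.67) in DXp and -7.35 (adjusted p = 1.5e-05, SE 0.66) in DXp_DXm, and its counts in the deletion libraries were 14, 7, 5 and 21. Uqcrb, a subunit of the ubiquinone-binding part, was at 91.5, 60.0 and 71.7 CPM in WT_EV, 479 and 246 in DXp and 190.0 and 262 in DXp_DXm and rose by log2 2.28 (adjusted p = 1.2e-04, SE 0.32) and 1.60 (adjusted p = 0.0014, SE 0.32). Uqcr10, the complex III member with the highest CPM per kilobase in WT_EV (346), had log2 changes of -5.87 and -5.49. The core proteins parted: Uqcrc1 fell (-3.86 and -3.18), while Uqcrc2 had a log2 change of 0.0047 in DXp (adjusted p = 0.99) and rose by log2 0.74 in DXp_DXm (adjusted p = 0.016). Without WT_EV replicate 2 or DXp_DXm replicate 2 that rise missed the threshold (0.72 and 0.70). It also missed it in edgeR with a block by replicate number (0.67, adjusted p = 0.066). Uqcrfs1, the Rieske iron-sulfur protein, fell in DXp (-0.90, adjusted p = 0.0052) and was not called in DXp_DXm (0.08, adjusted p = 0.75). In all 6 of 8 fell and 1 rose in DXp, and 5 fell and 2 rose in DXp_DXm, with medians of -3.40 and -2.51.

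The coding sequences of the extremes of complex III show how unlike their base composition is. Below is the whole coding sequence of Uqcr11 without its stop codon (168 bases, 60.7% G or C) and the first 168 of 333 coding bases of Uqcrb (42.9% G or C), from the GENCODE M21 transcripts, with G and C in capitals.
Uqcr11: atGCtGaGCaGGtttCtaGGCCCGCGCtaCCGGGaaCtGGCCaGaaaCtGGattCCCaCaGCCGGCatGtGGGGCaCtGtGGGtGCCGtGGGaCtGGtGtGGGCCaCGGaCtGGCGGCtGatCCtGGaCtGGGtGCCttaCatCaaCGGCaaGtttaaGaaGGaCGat
Uqcrb: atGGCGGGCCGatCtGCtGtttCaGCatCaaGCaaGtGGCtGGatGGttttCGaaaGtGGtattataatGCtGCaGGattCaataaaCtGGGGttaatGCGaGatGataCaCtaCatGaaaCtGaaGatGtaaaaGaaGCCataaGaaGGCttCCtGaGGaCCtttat
Over whole transcripts the GC content was 59.2% for Uqcr11 and 41.3% for Uqcrb. They differ in GC in the direction in which most members do between those that fell and those that rose, as described after the complexes.

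In complex IV 10 of 13 tested genes fell and 0 rose in DXp, and 9 fell and 1 rose in DXp_DXm (medians -3.42 and -1.36). Cox8a, a small membrane subunit, had the highest CPM per kilobase of all members in WT_EV (572). It was at 446, 459 and 158 CPM in WT_EV, 5.78 and 6.76 in DXp and 8.87 and 11.6 in DXp_DXm, with WT_EV replicate 3 well below the other wild-type libraries and still above every deletion library. It fell with log2 changes of -5.82 (adjusted p = 1.1e-05, SE 0.53) and -5.11 (adjusted p = 2.8e-05, SE 0.51). Cox4i1, the ubiquitous form of the regulatory subunit, fell from 310.2 ± 35.5 CPM (SD, n = 3) to 16.9 ± 6.69 and 15.6 ± 2.77 (SD, n = 2 each), log2 changes of -4.20 and -4.31. Cox5b, the zinc-binding subunit, fell with log2 changes of -4.59 and -3.50, Cox6a1 of -5.59 and -4.86, Cox6b1 of -3.42 and -1.36, and Cox7a2 of -2.45 and -1.35. Cox5a, which binds alongside Cox5b on the matrix side, behaved otherwise: its levels were 88.2, 78.6 and 78.5 CPM in WT_EV, 64.1 and 99.3 in DXp and 157 and 168 in DXp_DXm. Its change was -8.4e-05 in DXp (95% interval -0.55 to 0.55), and it rose by log2 0.99 (adjusted p = 0.0048, SE 0.24) in DXp_DXm. Cox6c was called in neither comparison, nor was Ndufa4 (-0.74 and -0.11, adjusted p = 0.051 and 0.76).

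Tissue forms of complex IV subunits were at or near 0. Cox6a2, Cox8b and Cox8c had 0 counts in all 7 libraries, Cox4i2 had 4 counts over the WT_EV libraries and 0 in the others, and Ndufa4l2 had 2 in WT_EV and 0 in the others. A count of 0 allows up to 3 counts in that library, which is counting error alone. Cox7b2 had 1 count in WT_EV, 4 in DXp and 6 in DXp_DXm. Together with the second Atp5o ID, at 0 throughout, these are the 7 members not tested. Cox7a1, the heart and muscle form of Cox7a2, had 57, 64 and 37 counts in WT_EV against 0 and 1 in DXp and 0 and 5 in DXp_DXm, and was called lower in both (adjusted p = 5.4e-04 and 0.0016). With the offsets for GC content and length described further on, its call in DXp_DXm was lost (-1.81, adjusted p = 0.14). Cox6b2, the testis form of Cox6b1, was at 14.2, 15.7 and 5.34 CPM in WT_EV, 0.562 and 0.270 in DXp and 0.705 and 0.903 in DXp_DXm and fell with log2 changes of -4.83 and -3.86.

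Of the 16 tested complex V genes 12 fell and 2 rose in DXp, and 10 fell and 4 rose in DXp_DXm (medians -2.19 and -1.06). The F1 head, which makes ATP, is built from alpha, beta, gamma, delta and epsilon subunits, and the changes of their genes differed in size and sign. Atp5b (beta), the complex V member with the highest CPM per kilobase in WT_EV (249), was at 1245, 1094 and 823 CPM in WT_EV, 246 and 398 in DXp and 549 and 531 in DXp_DXm and fell with log2 changes of -1.71 (adjusted p = 4.7e-04, SE 0.29) and -0.96 (adjusted p = 0.012, SE 0.28). Atp5a1 (alpha) fell with a log2 change of -0.98 in DXp (adjusted p = 0.01) and had a log2 change of -0.65 in DXp_DXm (adjusted p = 0.06). Atp5d (delta) was at 162, 147 and 127 CPM in WT_EV, 1.84 and 1.39 in DXp and 1.45 and 1.37 in DXp_DXm, the largest called falls of the complex, -6.50 (adjusted p = 4.5e-06, SE 0.33) and -6.68 (adjusted p = 5.4e-06, SE 0.33). Atp5c1 (gamma), in contrast, rose in DXp_DXm (0.74, adjusted p = 0.022), and its change of 0.58 in DXp missed the threshold (adjusted p = 0.055). Atp5e (epsilon) fell with log2 changes of -2.72 and -2.19. The call of Atp5a1 in DXp was lost without DXp replicate 1 (-0.55). The call of Atp5b in DXp_DXm was lost without DXp_DXm replicate 1 (-0.90) or 2 (-0.93). That of Atp5c1 was lost without WT_EV replicate 2 (0.77) or 3 (0.58) or DXp_DXm replicate 2 (0.53). It was also lost in edgeR with a block by replicate number (0.59, adjusted p = 0.096).

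In the stalk Atp5j, the coupling factor 6 subunit, rose most: it was at 38.9, 47.4 and 75.4 CPM in WT_EV, 307 and 191 in DXp and 215 and 229.6 in DXp_DXm, with every deletion library above every WT_EV library. Its log2 changes were 2.21 (adjusted p = 1.4e-04, SE 0.32) and 2.05 (adjusted p = 3.0e-04, SE 0.32). Its exons overlap those of Gabpa on the opposite strand, and Gabpa, which encodes the DNA-binding part of a regulator of respiratory genes, rose as well (2.41 and 2.06). Without a stated strand setting, reads from the shared stretch cannot be told apart. Uqcrb (with Gm10767), Ndufs1 (with Eef1b2), Ndufa11 (with Vmac), Ndufa13 (with Tssk6) and Atp5d (with Cbarp) have such neighbours too. In all 36 of the 98 members share exon bases with another listed gene, 32 of them on the opposite strand. Atp5f1, another stalk subunit, rose by log2 1.16 and 1.20, while Atp5h and Atp5o of the same stalk fell with log2 changes of -2.67 and -3.72 in DXp and -1.16 and -2.32 in DXp_DXm.

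The c subunit forms the rotor ring of the ATP synthase and comes from 3 genes, Atp5g1, Atp5g2 and Atp5g3, whose products end in the same mature protein after different import sequences. The last 78 codons before the stop encode the same amino acids in all 3. The 234 bases are shown, from the GENCODE M21 transcripts, with capitals at the 63 positions where the 3 genes do not share the base, 55 of them at the third position of a codon.
Atp5g1: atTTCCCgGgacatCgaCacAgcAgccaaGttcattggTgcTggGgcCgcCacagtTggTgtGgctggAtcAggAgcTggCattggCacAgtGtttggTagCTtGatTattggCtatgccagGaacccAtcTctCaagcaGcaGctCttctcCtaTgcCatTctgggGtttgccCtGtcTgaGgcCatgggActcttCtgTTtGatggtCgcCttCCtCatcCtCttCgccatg
Atp5g2: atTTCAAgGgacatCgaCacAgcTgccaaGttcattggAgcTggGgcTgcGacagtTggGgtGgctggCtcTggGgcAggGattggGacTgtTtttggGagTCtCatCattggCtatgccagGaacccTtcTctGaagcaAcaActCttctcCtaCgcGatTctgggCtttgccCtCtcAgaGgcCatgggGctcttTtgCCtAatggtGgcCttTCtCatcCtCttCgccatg
Atp5g3: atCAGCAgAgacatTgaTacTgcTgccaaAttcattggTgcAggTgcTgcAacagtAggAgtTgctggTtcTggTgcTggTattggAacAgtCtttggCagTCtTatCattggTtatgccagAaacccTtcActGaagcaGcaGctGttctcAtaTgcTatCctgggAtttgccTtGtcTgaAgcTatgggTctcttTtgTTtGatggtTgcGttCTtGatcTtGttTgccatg
Atp5g1 and Atp5g2 share 198 of these bases (84.6%), Atp5g1 and Atp5g3 184 (78.6%), and Atp5g2 and Atp5g3 181 (77.4%). G and C make up 54.7% of the stretch in Atp5g1 and Atp5g2 and 45.7% in Atp5g3.

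The 3 genes for this protein had very different changes. Atp5g1 was at 207, 118 and 95.9 CPM in WT_EV, 1.53 and 1.66 in DXp and 1.62 and 1.89 in DXp_DXm, and fell with log2 changes of -6.45 (adjusted p = 4.5e-06, SE 0.45) and -6.32 (adjusted p = 7.6e-06, SE 0.45). Atp5g2 was at 200.2, 156 and 128 CPM in WT_EV, 13.4 and 9.61 in DXp and 8.50 and 15.6 in DXp_DXm and fell with log2 changes of -3.81 (adjusted p = 1.5e-05, SE 0.38) and -3.74 (adjusted p = 2.6e-05, SE 0.38). For both, every deletion library lay below every WT_EV library. Atp5g3 was at 157, 136 and 110.4 CPM in WT_EV, 86.1 and 80.7 in DXp and 129.9 and 101 in DXp_DXm, with DXp below WT_EV (-0.69, adjusted p = 0.028) and DXp_DXm overlapping it (-0.22, adjusted p = 0.44). The call of Atp5g3 in DXp was lost without WT_EV replicate 1 (-0.58) or 2 (-0.71) or without either DXp library (-0.62 and -0.63). DESeq2 did not call it either (-0.55, adjusted p = 0.12). Per kilobase of exon, Atp5g3 had the most of the 3 in the deletion lines, 38.2 CPM in DXp and 52.9 in DXp_DXm, against 6.88 and 7.20 for Atp5g2 and 0.325 and 0.357 for Atp5g1. In WT_EV the order was Atp5g2 (96.3), Atp5g3 (61.7) and Atp5g1 (28.5).

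The 14 assembly factors and related genes moved in both directions. In each comparison 6 rose (42.9%) and 4 fell (28.6%), with medians of 0.22 in DXp and 0.47 in DXp_DXm. Among all genes 32.2% were higher and 40.1% lower in DXp, and 30.9% and 36.0% in DXp_DXm. Atp5s, also called coupling factor B, had the largest rise of all members: it was at 1.91, 2.49 and 2.94 CPM in WT_EV, 39.0 and 29.3 in DXp and 11.5 and 27.9 in DXp_DXm, log2 changes of 3.80 (adjusted p = 2.5e-05, SE 0.42) and 3.01 (adjusted p = 1.3e-04, SE 0.41). Ndufaf1, an early assembly factor of complex I, rose by log2 1.23 and 1.99, and Ndufaf4, another, by log2 1.74 and 1.23. Sdhaf3, an assembly factor of complex II, rose by log2 2.42 and 1.40. With the offsets for GC content and length the rises of Ndufaf4 (-0.03 and -0.09) and Sdhaf3 (0.48 and -0.12) were lost and that of Ndufaf1 was not (0.77 and 1.47). With offsets from the coding sequence Sdhaf3 stayed higher (2.86 and 1.56), while Ndufaf1 was called lower in DXp (-0.87) and lost its call in DXp_DXm (0.08). The medians of the 14 genes were -0.10 and -0.09 with the first offsets, with 5 higher and 4 lower in DXp and 3 and 1 in DXp_DXm. With the coding offsets they were -0.58 and -0.21, with 2 higher and 6 lower in DXp and 2 of each in DXp_DXm. Among all genes 24.1% were higher and 26.9% lower in DXp with the first offsets, and 20.9% and 21.6% in DXp_DXm. With the coding offsets these shares were 27.3% and 32.2% in DXp, and 22.4% and 25.1% in DXp_DXm. Without offsets Ndufaf3, Ndufaf8 and Sdhaf1 fell in both deletion lines. So did Cox7a2l (-2.17 and -2.60), which joins complexes III and IV into supercomplexes.

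The change of a member went with the GC content of its transcripts. Of the 23 members with over 54% GC all 23 fell in both deletion lines, with a median log2 change of -4.83 in DXp and -4.22 in DXp_DXm. Of the 38 with 48 to 54% GC 27 fell and 2 rose in DXp (median -2.54), of the 26 with 42 to 48% 8 fell and 9 rose (median 0.02), and of the 4 below 42% 1 fell and 3 rose. All genes followed the same course, with class medians in DXp of -3.42 over 54% GC, -0.82, 1.18 and 2.06 under 42%. In the class over 54% GC, 83.1% of all genes were lower in DXp and 81.6% in DXp_DXm. From 48 to 54% GC, 45.7% of all genes were lower in DXp and 17.1% higher. From 42 to 48% GC these shares were 11.6% and 57.1%, and in the lowest class 11.6% and 65.6%. In every class the members' median lay below that of all genes, though under 42% GC only slightly in DXp (2.01 against 2.06). Across the 91 members Pearson's r between GC content and log2 change was -0.83 in DXp and -0.81 in DXp_DXm, and across 15311 genes -0.59 and -0.57. These are descriptions across genes of the same libraries, and genes are not independent replicates. Length went with the change more loosely, r = 0.37 and 0.35 for log2 exon length.

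**Figure D4:**
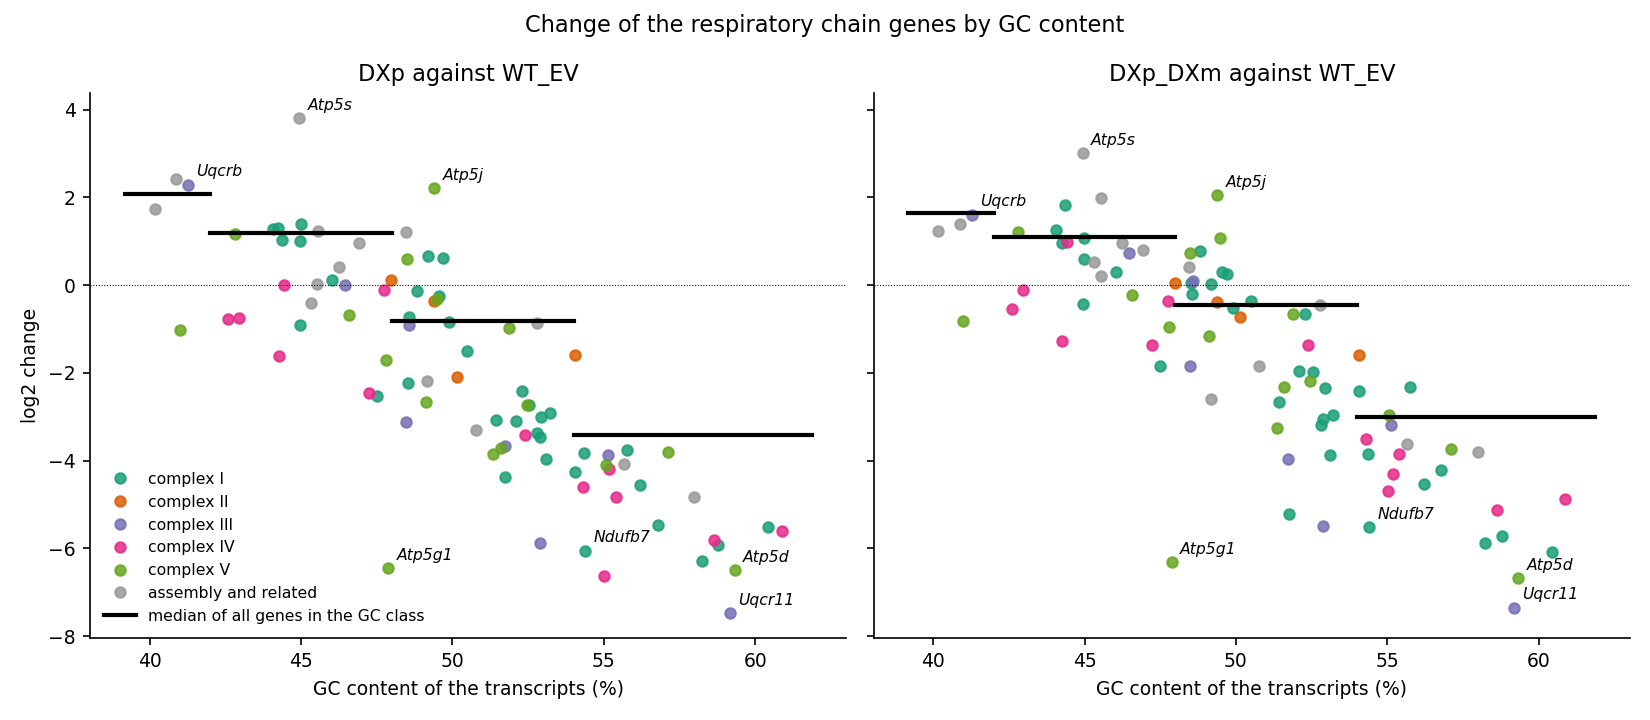
log2 change against WT_EV (vertical axis) by the GC content of a gene's transcripts (horizontal axis, %) for 90 of the 91 tested members, coloured by complex, in DXp (left) and DXp_DXm (right). Black bars are medians of all tested genes in 4 classes of GC content; members and all genes fall with rising GC content, and Atp5g1 lies far below its class.

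A fit with an offset for GC content and length in each library was made across all genes. With it 53 members were lower and 11 higher in DXp (median -1.12, all genes -0.11), where 26.9% of all genes were lower and 24.1% higher. In DXp_DXm 38 were lower and 8 higher (median -0.67, all genes -0.02), where 21.6% of all genes were lower and 20.9% higher. Of the 59 members that fell in DXp 48 stayed lower, and of the 14 that rose 6 stayed higher, namely Atp5j, Atp5s, Ndufaf1, Ndufaf2, Ndufaf5 and Uqcrb. Ndufs1 and Sdhb turned in DXp, to -0.64 and 0.67 (adjusted p = 0.047 and 0.036). In DXp_DXm 34 of 50 stayed lower and 6 of 18 higher. In complex IV 12 of 13 genes were lower in DXp with the offsets, Cox5a (-0.82) and Ndufa4 (-1.72) now among them. In complex I 2 genes were higher in DXp and 1 in DXp_DXm with the offsets, in place of 5 in each. In complex II 1 was lower and 1 higher in DXp and 0 were called in DXp_DXm, in place of 2 lower in each.

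Single members moved far under the offsets. Uqcr11 went from -7.47 to -3.28 in DXp, Atp5d from -6.50 to -2.84 and Cox8a from -5.82 to -1.65, all still lower. The calls of Atp5g2 (-0.45 in DXp and -0.69 in DXp_DXm), Atp5a1 (0.23 in DXp), Ndufs3 (-0.65), Ndufb11 (-0.70 and -0.36) and Uqcrfs1 (-0.49) were lost, as were the rises of Ndufab1 (-0.09 and -0.20), Ndufv2 (0.42 and 0.13) and Atp5f1 (-0.40 and -0.09). In DXp_DXm the falls of Sdhb (0.32), Sdhc (-0.49) and Cox6b1 (0.32) and the rises of Ndufs1 (0.43), Cox5a (0.21) and Uqcrc2 (0.22) were lost. So were, in DXp_DXm, the falls of Cox6b2 (-1.16), Ndufaf3 (-1.03), Ndufaf8 (-0.26) and Sdhaf1 (-1.30). The fall of Ndufaf8 in DXp (-1.03) and the rise of Ndufaf5 in DXp_DXm (0.48) were lost as well. Atp5g1 kept its fall, -6.98 and -6.93. Its listed exons span 4912 bases and its transcripts have 47.9% GC, against 408 coding bases at 56.9%. With offsets taken from the coding sequence instead the changes of Atp5g1 were -3.89 and -4.08. For Atp5j the coding offsets gave 0.94 and 0.92.

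Offsets taken from the coding sequence, an alternative added with the results in view, left 56 members lower and 12 higher in DXp, where 32.2% of all genes were lower and 27.3% higher. In DXp_DXm 40 were lower and 10 higher, where 25.1% and 22.4% of all genes were. The members that stayed higher in DXp were then Atp5j, Atp5s, Ndufab1, Ndufc1, Sdhaf3 and Uqcrb, so that Atp5j, Atp5s and Uqcrb are on both lists. In DXp_DXm Atp5j, Atp5s, Cox5a, Ndufab1 and Sdhaf3 stayed higher, and Uqcrb had a log2 change of 0.36 (adjusted p = 0.31). Ndufs1 was called lower in DXp (-0.85) and Uqcrc2 in both (-1.53 and -0.73), and Sdhb stayed lower in both (-0.75 and -1.03). Cox5a was higher in DXp (0.88), opposite to its call with the first offsets. Sdhd (2.29 and 1.99), Ndufa6 (1.44 and 1.64) and Ndufb2 (3.30 and 3.19) were called higher in both lines. In DXp_DXm the calls of Ndufa1 (-0.62), Atp5b (-0.56), Atp5e (-0.85) and Atp5c1 (-0.54) were lost.

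DXp_DXm against DXp compares the lines with 1 and with both alleles deleted. Most members were somewhat higher in DXp_DXm: 67 of 91 had a positive log2 change (73.6%, against 51.1% of all genes), with a median of 0.41 (all genes 0.02). With the offsets for GC content and length 55 of 91 were positive (60.4%), with a median of 0.25, and with those from coding sequence the median was 0.16. Only 3 passed the threshold, all higher, where 0.280% of all genes were called higher and 0.163% lower. No member was called lower by edgeR. At an unadjusted p under 0.05 by edgeR, 2 members were lower and 27 higher, where 1351 and 1845 of all 15331 genes were. In either direction these were 31.9% of members and 20.8% of all genes. DESeq2 called 0 members lower, where it called 1.98% of all genes lower. Cox6b1, which helps join the monomers of complex IV, was at 192, 137 and 131 CPM in WT_EV, 10.2 and 18.4 in DXp and 65.5 and 53.8 in DXp_DXm, so DXp_DXm lay above DXp and below WT_EV. It was higher by log2 2.06 (adjusted p = 0.042, SE 0.34), with a 95% interval of 1.29 to 2.83. Ndufa10, an accessory subunit of complex I, was at 98.8, 73.1 and 77.3 CPM in WT_EV, 12.8 and 18.2 in DXp and 58.8 and 46.7 in DXp_DXm and was higher by log2 1.77 (adjusted p = 0.042, SE 0.30). Ndufa9, which sits beside the ubiquinone site, was at 62.7, 57.2 and 42.3 CPM in WT_EV, 7.52 and 15.4 in DXp and 68.1 and 44.3 in DXp_DXm, with both DXp_DXm libraries above the lowest WT_EV library, and was higher by log2 2.29 (adjusted p = 0.047, SE 0.40).

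The member with the lowest p in each other complex missed the threshold. Sdhc was higher by log2 1.36 (adjusted p = 0.065, SE 0.31), Uqcrfs1 by 0.99 (adjusted p = 0.076, SE 0.25) and Atp5mpl, a small ATP synthase protein, by 1.40 (adjusted p = 0.065, SE 0.31). Without WT_EV replicate 1, WT_EV replicate 2, DXp replicate 1, DXp replicate 2 or DXp_DXm replicate 1, 0 members were called, although the changes of the 3 genes stayed at 1.50 to 2.90 there, and 8 were called higher without WT_EV replicate 3, where 1.71% of all genes were. With the GC and length offsets 0 members were called in either direction, where 0.157% of all genes were called higher and 0.117% lower. Then 22 members were higher and 4 lower at an unadjusted p under 0.05 by edgeR, where 1661 and 1297 of all 15331 genes were. In either direction these were 28.6% of members and 19.3% of all genes. DESeq2 called 10 members higher (1.80% of all genes), edgeR without the filter on low counts 17 (3.07%), and a fit with a block by the other number in the titles 21 (5.77%).

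**Figure D5:**
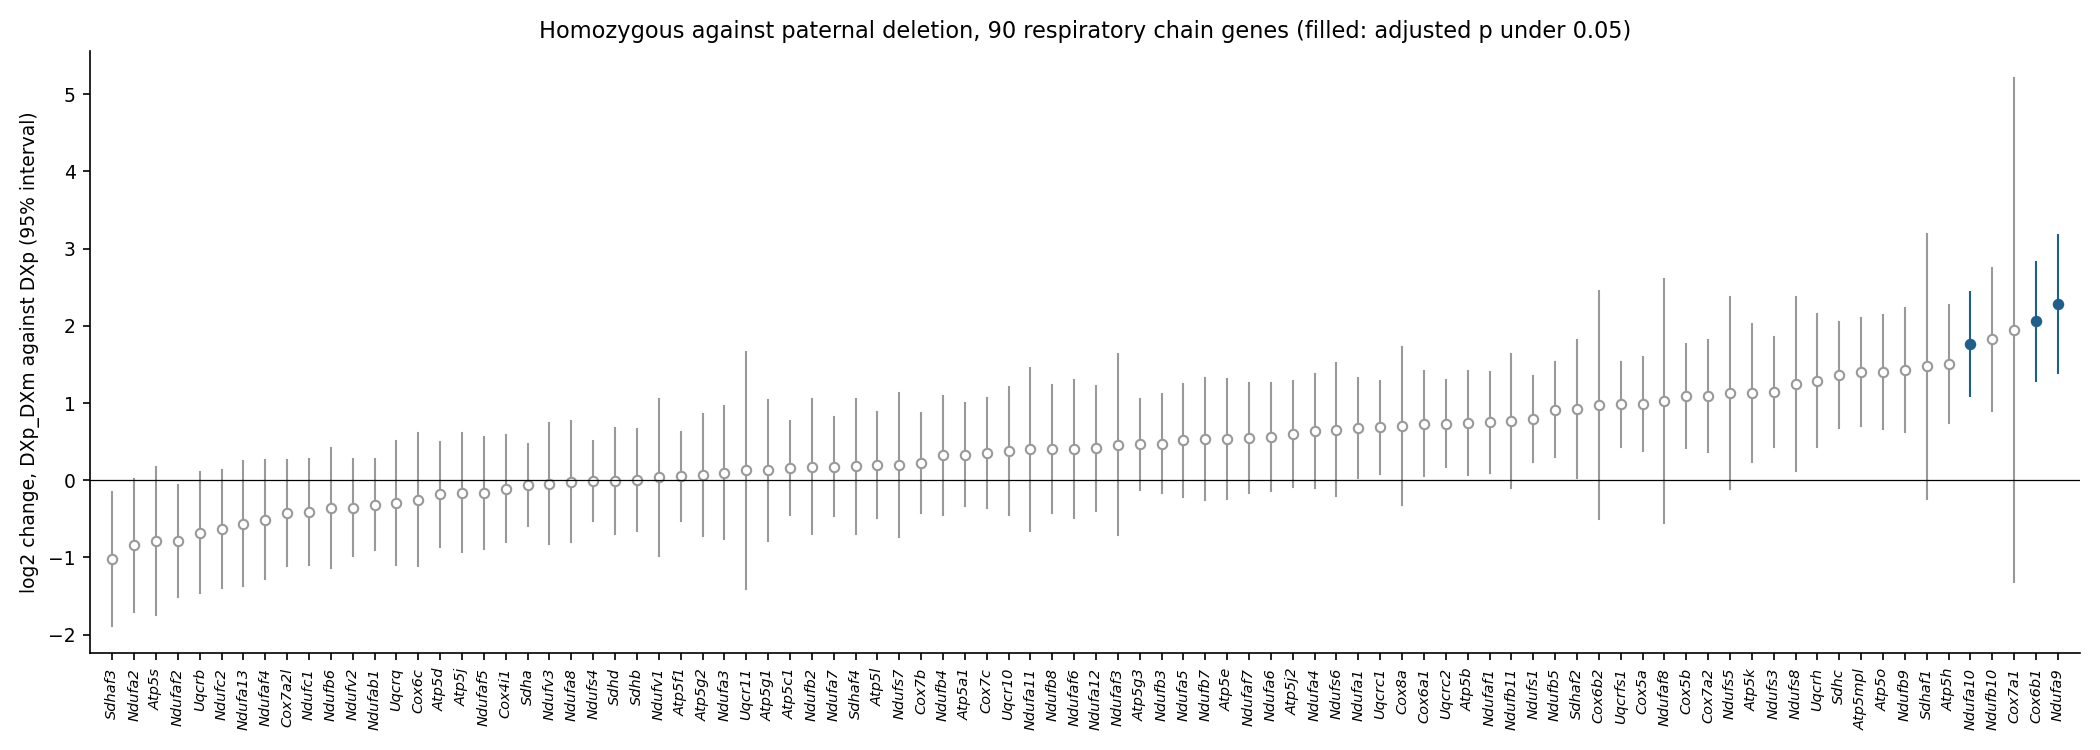
log2 change of DXp_DXm against DXp (vertical axis, point with 95% interval) for 90 of the 91 tested members in order of the change. Filled blue points pass an adjusted p under 0.05 (Ndufa10, Cox6b1 and Ndufa9), and most other points lie above 0. Of the 91 tested members 27 were higher and 2 lower at an unadjusted p under 0.05 by edgeR, so the intervals of some open points leave out 0. In either direction these are 31.9% of members, against 20.8% of all genes.

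The wild-type clones gave a second wild-type reference for 20 members, in a table held here only in part, of which 19 were tested among 3302 shared genes. WT_clone itself differed from WT_EV: 30.6% of the shared genes were called in either direction, 15.3% higher and 15.4% lower. Of the 19 members 6 were called, near that share in all, with 1 higher (5.26%) and 5 lower (26.3%). Cox5b was at 1127, 860.5 and 763 CPM in WT_EV, 367 and 312 in WT_clone, 31.5 and 27.0 in DXp and 69.4 and 52.3 in DXp_DXm, on a scale over the shared genes. In WT_clone it was lower than in WT_EV by a log2 change of -1.43 (adjusted p = 0.0052, SE 0.28). Against WT_clone its log2 change was -3.54 (adjusted p = 4.9e-05, SE 0.33) in DXp and -2.48 (adjusted p = 3.6e-04, SE 0.31) in DXp_DXm. With the GC and length offsets its calls in WT_clone (-0.77, adjusted p = 0.056) and in DXp_DXm against WT_clone (-0.87, adjusted p = 0.096) were lost, and that in DXp was not (-1.53). Ndufs1, higher in WT_clone than in WT_EV (0.94, adjusted p = 0.024), was not called against WT_clone in DXp (-0.29, adjusted p = 0.47) or DXp_DXm (0.47, adjusted p = 0.27).

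Against WT_clone 10 members were lower and 2 higher in DXp, where 40.2% of shared genes were called, and 8 were lower and 1 higher in DXp_DXm, where 25.0% were. Ndufa8, an accessory subunit of complex I, was at 244, 188 and 173 CPM in WT_EV, 125 and 159 in WT_clone, 12.7 and 9.05 in DXp and 9.42 and 11.6 in DXp_DXm, with every deletion library below every wild-type library. It fell with log2 changes of -3.70 (adjusted p = 6.5e-05, SE 0.37) in DXp and -3.75 (adjusted p = 1.3e-04, SE 0.37) in DXp_DXm, and between WT_clone and WT_EV its log2 change was -0.51 (adjusted p = 0.22). Sdhc fell with log2 changes of -3.07 and -1.74. Of the X-linked members Ndufa1 fell with log2 changes of -2.23 and -1.58 against WT_clone and Ndufb11 of -2.04 and -1.30. Cox7b, lower in WT_clone than in WT_EV (-1.12), had log2 changes of -0.03 and 0.16 with neither call. Atp5g3 was likewise lower in WT_clone than in WT_EV (-1.19, adjusted p = 0.012) and had log2 changes of 0.12 and 0.55 against WT_clone. With the offsets 2 members were called in WT_clone against WT_EV (24.0% of shared genes), 7 were lower and 1 higher in DXp against WT_clone (16.5%) and 3 were lower in DXp_DXm (6.24%). Ndufa8 (-1.41 and -1.91) and Sdhc (-2.48 and -1.48) were then still lower in both lines. Ndufa1 was lower in DXp (-1.71) and lost its call in DXp_DXm (-1.40, adjusted p = 0.074), and Ndufb11 lost both (-0.25 and 0.03). The rise of Ndufs1 in WT_clone was lost as well (0.28). Without WT_clone replicate 1, 0 members were called higher in DXp against WT_clone. Without WT_EV replicate 1 or 2, 2 or 3 members were called between the wild-type groups. Without DXp_DXm replicate 1 or 2, 3 or 4 were called in DXp_DXm against WT_clone.

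Other genes of the same machinery were described from lists by function. For comparison, 40.1% of all genes tested were called lower and 32.2% higher in DXp, and 36.0% and 30.9% in DXp_DXm. Of 10 tested genes linked to the chain outside the symbol rule 8 fell and 0 rose in DXp (median -1.19), and 5 fell and 1 rose in DXp_DXm. They are Cyc1, Cycs, Foxred1, Dmac1, Dmac2, Usmg5, Atpif1, Higd1a, Higd2a and Nnt, and not all of them encode subunits. With the offsets for GC content and length 7 were lower and 0 higher in DXp, and 4 lower and 0 higher in DXp_DXm. Cyc1, the cytochrome c1 of complex III, had log2 changes of -5.06 and -4.57, and Cycs, the cytochrome c that connects complexes III and IV, of -0.83 (adjusted p = 0.017) and -0.55 (adjusted p = 0.09). Of 77 tested mitochondrial ribosomal protein genes 57 fell and 8 rose in DXp and 37 fell and 10 rose in DXp_DXm (medians -1.88 and -0.77). Among 36 further assembly factors 19 fell and 10 rose in DXp, and 16 and 12 in DXp_DXm. Sco2, a copper chaperone for complex IV, fell with log2 changes of -6.21 and -4.67 (with the offsets -2.49, and -1.08 with the call lost), and Cox20, which chaperones a mitochondrially encoded subunit of that complex, rose by log2 3.54 and 2.91. Of 17 tricarboxylic acid cycle genes 9 fell and 6 rose in DXp and 9 and 5 in DXp_DXm. Mdh2, which makes oxaloacetate, fell with log2 changes of -4.12 and -2.98, and Dld, shared by the keto acid dehydrogenases, rose by log2 2.69 and 1.96. The call of Dld in DXp_DXm was lost with the offsets (0.66, adjusted p = 0.057). With the offsets the ribosomal protein genes stood at 48 lower and 6 higher in DXp and 35 and 8 in DXp_DXm. The assembly factors stood at 18 lower and 9 higher in DXp and 8 and 7 in DXp_DXm. The cycle genes stood at 11 lower and 2 higher in DXp and 8 and 2 in DXp_DXm. Of all genes 26.9% were then lower and 24.1% higher in DXp, and 21.6% and 20.9% in DXp_DXm. The counts of the assembly factors in DXp_DXm lay near these shares.

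Regulators of these genes went both ways, as all genes did, with 6 of 14 tested higher and 6 lower in DXp. In DXp_DXm 7 were higher and 6 lower. Of all genes 32.2% were higher and 40.1% lower in DXp, and 30.9% and 36.0% in DXp_DXm. Nrf1, a transcription factor of many respiratory genes, fell with log2 changes of -2.00 and -1.60, and with the offsets by -1.89 and -1.59. Yy1, a zinc finger factor, rose by log2 1.68 and 0.70. Tfam, which packages and helps transcribe mitochondrial DNA, rose by log2 1.30 and 1.41, while Polrmt, the mitochondrial RNA polymerase, fell with log2 changes of -5.53 and -5.68. With the offsets the calls of Tfam (-0.01 and 0.25), Gabpa (0.52 and 0.56) and, in DXp_DXm, Yy1 (0.51) were lost, and that of Polrmt was not. Over the list the counts were then 5 lower and 2 higher in DXp and 3 and 1 in DXp_DXm. The shares of all genes were then 26.9% lower and 24.1% higher in DXp, and 21.6% and 20.9% in DXp_DXm. Ppargc1a, a coactivator of respiratory genes in energy-hungry tissues, had 0 counts in every library.

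Promoters from RefSeq (GRCm38.p6, 250 bases before to 50 after the start, the first listed for each gene) were matched by symbol or synonym for 80 of the 97 symbols. The core of the NRF1 site, GCGCATGCG on either strand, was in 10 of the 80 (12.5%) and in 1.81% of 27025 promoters. Of these 10 members 8 fell and 2 (Ndufaf4 and Ndufaf5) rose in both deletion lines. The YY1 letters AAGATGGCG were in 7 (8.75%, against 1.49% of all), of which 5 fell and 2 rose in DXp and 4 fell and 1 rose in DXp_DXm. The ETS letters CCGGAAGTG, as bound by the factor that Gabpa encodes, were in 2 (2.5%, against 2.06%). Among all 91 tested members, with or without such letters, 64.8% fell and 15.4% rose in DXp, and 54.9% and 19.8% in DXp_DXm. Over all genes 40.1% were lower and 32.2% higher in DXp, and 36.0% and 30.9% in DXp_DXm. Whether members with such letters differ from the others was not tested. The core of the NRF1 site can overlap its own reverse complement, so 1 site can match on both strands. Windows of 29 bases around the core, with the core in capitals, are given for 3 members that fell and 1 that rose. They lie on chr15:102671071-102671099 (minus strand) for Atp5g2, chr5:115349102-115349130 (minus strand) for Cox6a1, chr17:56717692-56717720 (plus strand) for Ndufa11 and chr4:24897960-24897988 (plus strand) for Ndufaf4, with the core ending 33, 153, 51 and 104 bases before the start.
Atp5g2: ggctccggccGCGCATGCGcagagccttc
Cox6a1: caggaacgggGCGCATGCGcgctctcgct
Ndufa11: cctgcactgcGCGCATGCGcgcacgcctt
Ndufaf4: ccagatgtctGCGCATGCGcctgtgcgga
A match to these letters is a description of the sequence, and no binding was measured here.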

How the data were processed

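RNA-seq was made from total RNA with a NEBNext Ultra or a TruSeq stranded kit, per the labels, which do not say which library used which. Per the submitters' processing notes, FastQC, STAR 2.7.9a, featureCounts 2.0.1 and the GRCm38 (mm10) build were used. The strand setting, the treatment of multi-mapped reads and the annotation release were not given in the sources used here. Deposited values are whole-number counts per gene. Libraries held 14352719 to 29335803 counts over 55401 genes, and the WT_clone table, held only in part, shares 11512 genes with it.

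Counts were filtered (filterByExpr), scaled by TMM and tested with edgeR 4.0.16 in R 4.3.3 (robust quasi-likelihood test, 2-sided, Benjamini-Hochberg over all genes tested, called at an adjusted p under 0.05). All 7 libraries shared 1 fit with group as its only term. A second fit held all 9 libraries on shared genes. CPM are TMM-scaled. GC content and exon length came from GENCODE M21, and offsets were splines (5 degrees of freedom) of both in each library, with GC content held within 30 to 70%. Alternatives were DESeq2 1.42.0, no filter, upper-quartile scaling, protein-coding genes only, the offsets, replicate blocks and leaving out each library. On simulated counts for 14674 genes in DXp against WT_EV, 82 of 100 genes changed 4-fold and 100 of 100 changed 8-fold were recovered, with 4 false calls. In DXp_DXm against DXp there were 8 false calls, and 9 with the offsets. The changed genes were well counted, the groups were otherwise equal, and all genes had 1 common spread and no GC trend. The data differ in this, so the simulation checks the code and does not give the rate of false calls in the data.

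The 2 numbers in the titles of the DXp libraries disagree, and the one after "rep" was used. The symbol rule for the members used no measured value, but it, the gene lists and the tests were set with earlier results of these data known. Members named are a fixed set of well-known subunits and tissue forms, and in each complex the called members with the largest rise and fall (mean of at least 5 CPM in a group), the lowest p between deletion lines and the highest CPM per kilobase. All other genes named were picked after their values were seen. Results of 1 member are not reported here on its own.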

Additional observations from a re-analysis of the deposited data

Results flagged for a closer look

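The homozygous and the paternal deletion differed from each other, by a direct test of DXp_DXm against DXp, for 3 members. Ndufa10 was higher in DXp_DXm by 1.77 on the log2 scale, Ndufa9 by 2.29 and Cox6b1 by 2.06, with both DXp_DXm libraries above both DXp libraries for each. The adjusted p from edgeR was 0.042, 0.047 and 0.042, and 0.051 to 0.053 with protein-coding genes only. With 1 library left out at a time the adjusted p of Cox6b1 reached 0.23, that of Ndufa10 0.23 and that of Ndufa9 0.25, and the log2 change of Cox6b1 ran from 1.66 to 2.55.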

How the results depend on the processing

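Leaving out 1 library at a time gave 13 to 15 members higher and 55 to 61 lower in DXp against WT_EV, 12 to 18 higher and 45 to 52 lower in DXp_DXm against WT_EV, and 0 to 8 higher and 0 lower in DXp_DXm against DXp. It gave 2 to 5 called members in WT_clone against WT_EV, 10 to 12 in DXp against WT_clone and 3 to 9 in DXp_DXm against WT_clone. In DXp_DXm against DXp the 3 higher members became 10 with DESeq2, 17 without the filter on low counts, 21 with the replicate block by the other number in the title, and 0 with protein-coding genes only, with the replicate block, with the GC and length offsets from transcripts or coding sequence, or with the block and the offsets together; the cause was not tested. Higher members in DXp_DXm against WT_EV numbered 8 with the offsets, 10 with the coding offsets and 5 with the block and offsets, and 7 in DXp against WT_EV with the block and offsets. With the offsets 2 members were called in WT_clone against WT_EV and 3 in DXp_DXm against WT_clone. Higher members in DXp against WT_clone numbered 1 with the offsets and 0 without WT_clone replicate 1. Replicate numbers are shared between groups. By the number after "rep", same-numbered libraries did not deviate together (r of -0.20 to 0.06). The other numbering was not checked in this way, and it would turn the sign of r between DXp and DXp_DXm. Whether libraries were paired is therefore not settled, and both blocks by number were alternatives only. The replicate block gave 13 higher and 59 lower members in DXp and 13 and 51 in DXp_DXm, and the other numbering of DXp 14 and 62, and 17 and 54. With the GC and length offsets, among the members chosen by the naming rule, the log2 change took the other sign in DXp against WT_EV Atp5a1 0.23, Ndufab1 -0.0851, Ndufs1 -0.64, Sdha -0.23, Sdhb 0.67, Sdhd 0.35, Uqcrc2 -0.42, in DXp_DXm against WT_EV Atp5a1 0.22, Cox6b1 0.32, Ndufab1 -0.20, Ndufs3 0.14, Sdha -0.42, Sdhb 0.32. With the offsets from coding sequence (an alternative chosen after seeing the data), among the members chosen by the naming rule, the log2 change took the other sign in DXp against WT_EV Atp5c1 -0.67, Cox5a 0.88, Ndufs1 -0.85, Ndufv2 -0.0256, Sdhd 2.29, Uqcrc2 -1.53, Uqcrfs1 0.29, in DXp_DXm against WT_EV Atp5c1 -0.54, Cox6b1 0.0829, Ndufs3 0.25, Ndufv2 -0.38, Sdha -0.16, Sdhc 0.21, Sdhd 1.99, Uqcrc2 -0.73. With the replicate block with GC and length offsets, among the members chosen by the naming rule, the log2 change took the other sign in DXp against WT_EV Atp5a1 0.0955, Ndufab1 -0.0762, Ndufs1 -0.80, Sdha -0.25, Sdhb 0.69, Sdhd 0.12, Uqcrc2 -0.52, in DXp_DXm against WT_EV Atp5a1 0.0969, Cox6b1 0.25, Ndufab1 -0.17, Ndufs3 0.0235, Sdha -0.45, Sdhb 0.34. Other settings turned the sign only of changes near 0 that were not called: Cox5a in DXp against WT_EV (-8.4e-05) 0.13 (DESeq2), 0.00246 (no filter on low counts), 0.0110 (upper-quartile scaling), and -0.34 to 0.40 over the libraries left out; Uqcrc2 in DXp against WT_EV (0.0047) -0.0323 (protein-coding genes only), -0.0730 (replicate block), -0.0683 (replicate block, other number in the title), and -0.20 to 0.31 over the libraries left out; Ndufa4 in DXp_DXm against WT_EV (-0.11) -0.33 to 0.10 over the libraries left out; Sdha in DXp_DXm against WT_EV (0.05) -0.12 to 0.31 over the libraries left out. Depth limits the members that were not tested and Cox7a1. With 2 libraries in each deletion group, leaving out 1 leaves a lone library that is assumed to vary like the other groups.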
